A study of Mus musculus with 2 samples.

Results

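The BCL2 family decides at the mitochondrial outer membrane whether a cell enters apoptosis. Its effectors, Bax and Bak1, form pores that release cytochrome c into the cytosol, where it starts the caspase cascade. Its anti-apoptotic members hold the effectors and the BH3-only members in check. The BH3-only members are stress sensors that occupy the groove of the anti-apoptotic proteins through a short helix, the BH3 domain, and some of them also activate the effectors directly. Mouse embryonic stem (ES) cells have been described as standing close to the threshold of this pathway, which was not measured here.

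Levels of 10 genes of this family are described here: the anti-apoptotic genes Bcl2, Bcl2l1 (BCL-XL) and Mcl1, the effector genes Bax and Bak1, and the BH3-only genes Bcl2l11 (BIM), Bbc3 (PUMA), Pmaip1 (NOXA), Bid and Bad. They were taken by name, as the rows of both count tables whose Ensembl gene ID carries 1 of these symbols in GENCODE release M21, and they make up 10 of 43629 genes.

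Poly-A RNA was sequenced from mouse ES cells with the genotype Drosha knockout, made with a paired CRISPR/Cas9 approach on the strain background 129/Ola. Drosha is the nuclear enzyme that cuts microRNA hairpins out of their primary transcripts. The cells came from the blastocyst, grew in serum plus LIF without further treatment and were at passage 7. There were 2 libraries, A and B, of this 1 group, and no library of another genotype was analysed here, so no value below is a change caused by the knockout. Whether the libraries come from separate lines is unclear, since their titles carry the numbers 1 and 2 but both have the same source name, and the cell type is labelled for A only. Separate cultures are not stated, so the p-values below concern these libraries only and a difference between them may be technical.

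Library A held 29264632 gene counts and library B 42322129, which puts the level that a count of 0 still allows, 3 counts, at 0.102 and 0.0711 CPM (counts per 1000000 counts of the scaled library). The coefficient of variation between the libraries beyond counting error, estimated as 1 common value over genes with at least 10 reads, was 2.25%. All 5 ES cell markers on the list examined (Pou5f1, Sox2, Nanog, Esrrb and Zfp42) were between 491 and 1179 CPM. Of these, 0 were called different between A and B (exact binomial test, Benjamini-Hochberg adjusted), beside 2.29% of all genes tested. An unadjusted p below 0.05 was found for 1, beside 12.4% of all genes tested. Of 8 fibroblast markers, 3 reached 1 CPM in both libraries. By the same test 4 of 7 tested were called, Col1a2, Col3a1, Postn and Dcn, beside 2.29% of all genes tested. All 4 were higher in A (log2 ratio of B over A from -2.24 to -1.60). Their levels were low, the highest being Dcn at 1.74 CPM in A and 0.569 in B. The summed level of the list was 61.4 CPM in A and 56.1 in B. Most of this sum was Thy1, which was not called, at 42.9 CPM in A and 43.7 in B. Of 5 blood markers, 2 (Cd3e and Cd79a) reached 1 CPM in both libraries, the list summed to 7.19 CPM in A and 6.66 in B, and Ptprc had 1 read in each library. Drosha itself had 4865 reads in A and 7023 in B, 165.8 and 166.4 CPM, and since a count over the whole gene also takes reads outside a deleted part, it does not check the knockout.

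The BH3 domain is the sequence feature common to the 3 classes, and it is shown because it is what lets the members bind one another. Its core was searched in the protein translated from the longest complete coding sequence of each gene, as a leucine, any 3 residues, a glycine, alanine or serine, and an aspartate. All 10 members held it, 9 of them once and Pmaip1 at 2 places. The pattern is short, and 34.0% of 21376 mouse proteins hold it somewhere, as do 18.3% of 7985 proteins with the members' lengths of 103 to 331 residues. A match is therefore a description of the sequence and not a measured binding site. The coding bases around the core are given for 9 members, 48 bases on the coding strand from 5′ to 3′, with the 18 bases of the core in capitals:
Bcl2, core at chr1:106712584-106712601, minus strand: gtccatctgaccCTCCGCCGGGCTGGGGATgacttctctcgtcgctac
Bcl2l1, core at chr2:152829706-152829723, minus strand: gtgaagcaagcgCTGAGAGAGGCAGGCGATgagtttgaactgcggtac
Mcl1, core at chr3:95659436-95659453, plus strand: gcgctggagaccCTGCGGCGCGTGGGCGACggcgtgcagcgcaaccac
Bax, core at chr7:45466006-45466023, minus strand: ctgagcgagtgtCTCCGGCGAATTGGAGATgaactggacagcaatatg
Bak1, core at chr17:27022540-27022557, minus strand: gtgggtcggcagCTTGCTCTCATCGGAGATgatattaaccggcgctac
Bcl2l11, core at chr2:128147150-128147167, plus strand: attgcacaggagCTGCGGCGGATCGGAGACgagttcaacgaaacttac
Bbc3, core at chr7:16313773-16313790, plus strand: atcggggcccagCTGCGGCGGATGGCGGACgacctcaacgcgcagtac
Bid, core at chr6:120897298-120897315, minus strand: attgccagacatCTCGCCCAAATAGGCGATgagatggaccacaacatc
Bad, core at chr19:6950792-6950809, plus strand: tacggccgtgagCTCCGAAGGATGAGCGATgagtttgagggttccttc

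Positions are on GRCm38, and each of these cores lay within 1 coding exon. The core began at residue 94 of 236 in Bcl2 and residue 90 of 233 in Bcl2l1, while in Mcl1, the longest protein of the set, it began at residue 194 of 331. Among the BH3-only proteins its place varied, from residue 150 of 196 in Bcl2l11, 151 of 204 in Bad and 141 of 193 in Bbc3 to residue 90 of 195 in Bid and residues 27 and 78 of 103 in Pmaip1. Directly after the leucine, where the search allowed any residue, 9 of 11 cores had an arginine. Before the aspartate, where it allowed only glycine, alanine or serine, 9 of 11 had a glycine. The same shares among other proteins with the pattern were not computed, so neither count is read as particular to the family. Over 16 residues around each core, the median of shared residues over all 55 pairs was 5. These pairs include the 2 cores of Pmaip1, whose bases are not printed. The most was 9, for Bcl2 with Bcl2l1 and for the 2 Pmaip1 cores with each other. Likeness did not follow the classes. Bcl2 shared 7 with Mcl1, but Bcl2l1 with Mcl1 and Bax with Bak1 shared only 4. Across classes, Bcl2 with Bak1 and Bcl2l1 with Bcl2l11 shared 8. The leucine and the aspartate that the search fixed are among the shared residues of every pair.

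Of the 10 genes, 9 reached at least 1 CPM in both libraries, called expressed below, and Bcl2 was the exception. The median of all 10 was 28.5 TPM (counts divided by the summed exon length of each gene, as a share of 1000000), beside 9.47 TPM over all 18198 genes with at least 10 reads and 17.1 TPM over the 13949 expressed genes. Bax and Mcl1 stood far above the other 8 genes, and Bcl2 far below the other 9. Levels of different genes are ranked in TPM, since longer genes collect more reads, and levels of 1 gene are compared between libraries in CPM. These CPM are scaled by the trimmed mean of M-values (TMM). Where CPM or reads of different genes stand side by side, they are not corrected for length. In a bulk sample fewer cells with a transcript and less of it per cell cannot be told apart.

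**Figure D1:**
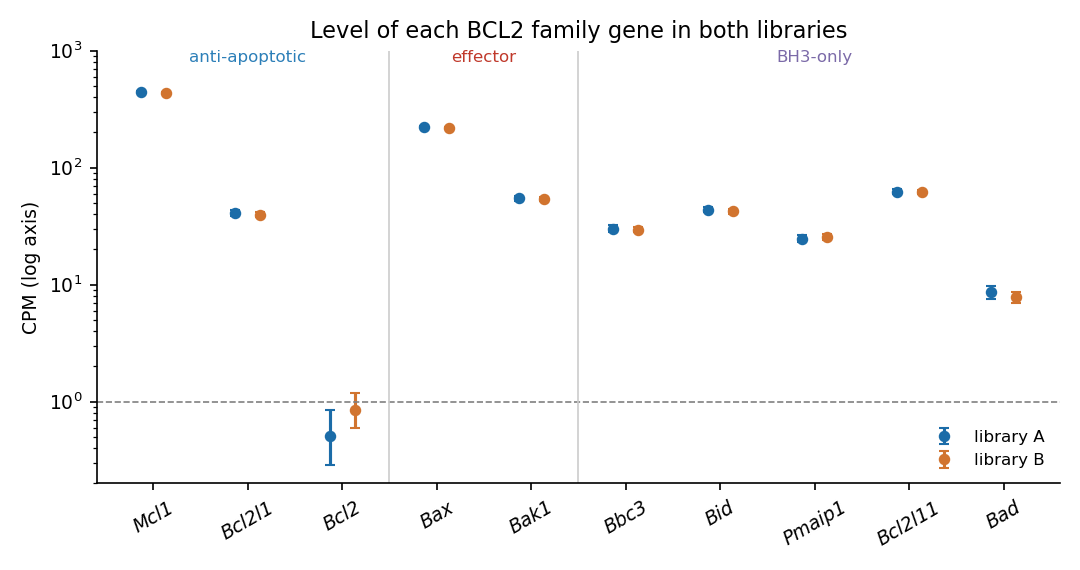
Level of each of the 10 genes in library A and library B in CPM on a log axis, grouped by role. Bars are 95% exact Poisson intervals for counting error and the dashed line marks 1 CPM; Mcl1 lies at 440.8 and 438.8 CPM, and both values of Bcl2 fall under the line.

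Among the anti-apoptotic genes described here, Mcl1 carried nearly all of the transcripts. Mcl1 (ENSMUSG00000038612, chr3:95658788-95663176, plus strand), a short-lived protein that binds Bak1 and several BH3-only proteins, had 12931 reads in A and 18523 in B. This was 440.8 and 438.8 CPM, or 343 ± 4.12 TPM (SD, n = 2), above 96.6% of expressed genes. Bcl2l1 (ENSMUSG00000007659, chr2:152780668-152831728, minus strand), which encodes the long-lived inhibitor BCL-XL and by alternative splicing a shorter pro-apoptotic form, had 1207 and 1666 reads. It reached 41.1 CPM in A and 39.5 in B, or 23.5 ± 0.897 TPM, close to the middle of the expressed genes (above 57.9% of them). The counts are per gene and do not separate its splice forms.

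Bcl2 (ENSMUSG00000057329, chr1:106538178-106714274, minus strand), the founding member of the family, had only 15 reads in A and 36 in B. Its level was 0.511 CPM in A (95% exact Poisson interval 0.286 to 0.843) and 0.853 CPM in B (0.597 to 1.18), above the level of 3 counts in each library. Per length it was at 0.150 TPM in A and 0.247 in B. Bcl2l1 was thus 161 times as abundant as Bcl2 in A and 92.4 times in B by exon length, both resting on the few reads of Bcl2. By coding length the ratios were 81.5 and 46.9, and by the longest coding transcript 225 and 129.6. Mcl1 made up 93.6% ± 0.139 (SD, n = 2) of the summed TPM of the 3 anti-apoptotic genes and was 14.6 ± 0.384 times as abundant as Bcl2l1. That ratio also depends on the gene length: it was 8.20 with the longest coding transcript and 7.68 by coding length.

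Both effector genes were expressed, Bax well above Bak1. Bax (ENSMUSG00000003873, chr7:45461697-45466898, minus strand), which is largely cytosolic in healthy cells and moves to mitochondria when activated, had 6532 reads in A and 9285 in B. This was 222.6 and 219.9 CPM, or 375 ± 6.54 TPM, above 96.9% of expressed genes and the highest of the 10 by exon length. Bak1 (ENSMUSG00000057789, chr17:27019810-27029009, minus strand), which sits in the mitochondrial outer membrane already, had 1609 and 2289 reads, 54.8 and 54.2 CPM, or 60.5 ± 1.02 TPM. It lay above 79.6% of expressed genes, and Bax was 6.20 times as abundant per exon length in both libraries. With other lengths the ratio of Bax to Bak1 was 8.81 (longest coding transcript), 4.92 (coding length) and 11.2 (transcript with the longest complete coding sequence).

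The 5 BH3-only genes were all expressed, by exon length at levels between those of Bak1 and Bcl2. Bbc3 (ENSMUSG00000002083, chr7:16308393-16318205, plus strand), a transcriptional target of p53 whose protein PUMA binds all the anti-apoptotic members, was the highest of the class by exon length but not by the other lengths given below. It had 886 reads in A and 1247 in B, 30.2 and 29.5 CPM, or 37.5 ± 0.918 TPM. Bid (ENSMUSG00000004446, chr6:120891930-120916853, minus strand), which caspase-8 cleaves to link death receptors to mitochondria, had 1287 and 1791 reads, 43.9 and 42.4 CPM, or 32.4 ± 1.05 TPM. Both lay in the upper part of the expressed genes, Bbc3 above 69.6% of them and Bid above 65.9%.

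Pmaip1 (ENSMUSG00000024521, chr18:66458533-66465565, plus strand), whose protein NOXA binds mainly Mcl1, had 727 reads in A and 1077 in B, 24.8 and 25.5 CPM, or 24.6 ± 0.289 TPM. Bcl2l11 (ENSMUSG00000027381, chr2:128126038-128162547, plus strand), whose protein BIM binds every anti-apoptotic member and can activate Bax and Bak1, had 1830 and 2619 reads. Its 62.4 and 62.0 CPM were the highest of the class, but its exons cover 8029 bases, and per length it fell to 20.7 ± 0.262 TPM. Bad (ENSMUSG00000024959, chr19:6941861-6951899, plus strand), which survival kinases such as Akt phosphorylate and 14-3-3 proteins then hold in the cytosol, was the lowest of the class. It had 252 and 330 reads, 8.59 and 7.82 CPM, or 8.56 ± 0.645 TPM, above 33.2% of expressed genes.

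Summed by role over the 10 genes only, effector transcripts came to 435 ± 7.56 TPM, anti-apoptotic transcripts to 367 ± 4.95 TPM and BH3-only transcripts to 124 ± 2.59 TPM (SD, n = 2). Other expressed members of these roles, such as the BH3-only gene Bmf at 20.9 TPM, are not in the sums. The sums and their ratios thus depend on the genes chosen. The effector sum was 1.19 ± 0.00460 times the anti-apoptotic sum and the BH3-only sum 0.337 ± 0.00250 times. These SDs hold the spread between the libraries and not the choice of gene length, which moved the ratios much further. With the length of the longest coding transcript of each gene in place of all its exons they were 1.55 and 0.437, and with the coding length of that transcript 1.03 and 0.665. With the transcript that has the longest complete coding sequence they were 1.93 and 0.439. The BH3-only sum was the smallest in each of these choices. By coding length the effector sum (615 TPM) and the anti-apoptotic sum (599 TPM) lay close together, and the former rests on a coding length of Bax that is too short, so no order of these classes is read from it. They are sums of RNA levels and say nothing of protein.

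The order by TPM was Bax, Mcl1, Bak1, Bbc3, Bid, Pmaip1, Bcl2l1, Bcl2l11, Bad and Bcl2, the same in A and in B. In all 9 pairs of neighbours the lower value of the upper gene exceeded the higher value of the lower gene. Within each library the 95% counting intervals overlapped for 1 of these pairs, Pmaip1 and Bcl2l1, so these neighbours could not be told apart by counting error. Only part of the order was independent of the length used. With the longest coding transcript 5 of 10 genes kept their rank (Bax, Mcl1, Bak1, Bad and Bcl2), and with its coding length 3 of 10 did (Bcl2l1, Bad and Bcl2).

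The middle of the order moved most. Bcl2l11 was at rank 8 by its exons with 20.7 TPM and at rank 3 by coding length with 126 TPM, and Bbc3 went from rank 4 to rank 8. Counts are per whole gene while the coding length leaves out the UTRs, so this choice raises genes with long UTRs. Pmaip1 rose from 24.6 TPM to 97.2 TPM by coding length, since its coding part is only 309 bases of a transcript of 2727. Bax exceeded Mcl1 1.09-fold by exons and 1.56-fold by the longest coding transcript, while by coding length Mcl1 was ahead (ratio 0.967). The coding length of Bax (517 bases) and of Bad (393 bases) came from transcripts whose annotated coding part is shorter than their full proteins of 192 and 204 residues need, so their coding-length levels are too high. Bax and Mcl1 held the top 2 ranks, Bad rank 9 and Bcl2 rank 10 under all 4 lengths.

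**Figure D2:**
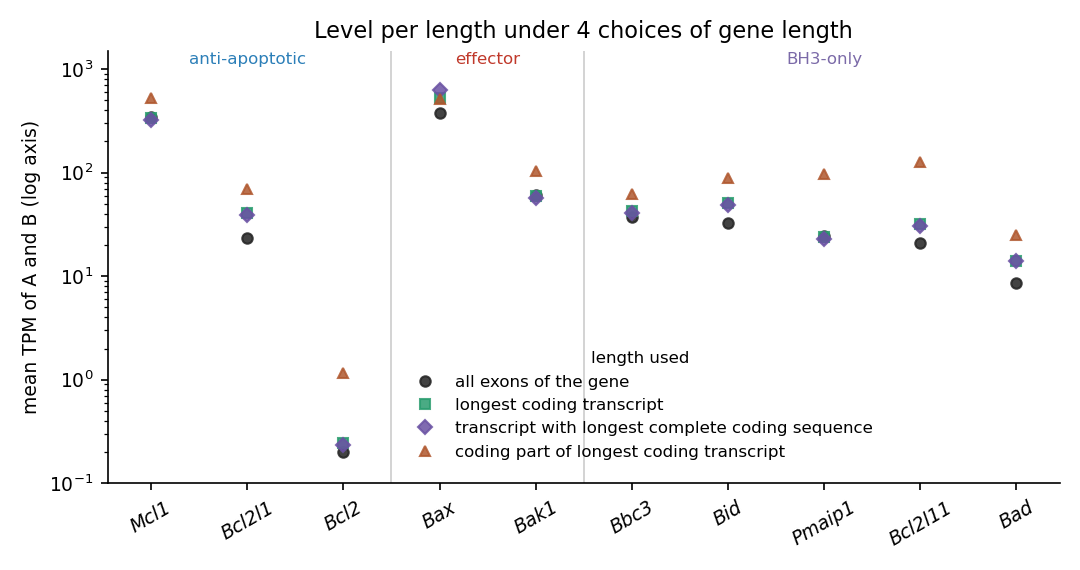
Mean TPM of libraries A and B for each of the 10 genes on a log axis, with 1 mark for each of 4 choices of gene length. Bcl2l11 moves from 20.7 to 126 TPM between the exon length and the coding length, while Bcl2 stays lowest and Bax and Mcl1 highest.

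For none of the 10 genes was a difference between the libraries beyond counting error found. All 10 had at least 10 reads and entered the exact binomial test, Benjamini-Hochberg adjusted over 18198 such genes, and 0 of the 10 were called at 0.05, beside a background of 2.29% of all genes tested. At an unadjusted p below 0.05 the count was also 0, beside 12.4% of all genes tested. With the coefficient of variation set to 0.1, edgeR's exact test called 0 of the 10 but only 1 of all genes tested. That 0 could therefore hardly have come out otherwise. At these background shares, 0 of 10 is not a result particular to the family. The log2 ratio of B over A was below 0 for 8 of 10 genes and for 50.3% of all genes tested, with a median of -0.017 beside -0.00084 over all. Once the trend of the ratios with GC content was removed, 5 of 10 were below 0.

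For the deeply sequenced members the intervals of the difference between the libraries were narrow. They cover counting error only and not the choice of processing. For Mcl1 the log2 ratio of B over A was -0.01, with a 95% exact binomial interval from -0.04 to 0.03. For Bax it was -0.02 (-0.06 to 0.03), for Bak1 -0.02 (-0.11 to 0.08) and for Bcl2l11 -0.01 (-0.09 to 0.08). Once the trend with GC content was removed, the ratio of Bax was 0.065, outside this interval. The other expressed genes, Bcl2l1, Bbc3, Bid, Pmaip1 and Bad, had ratios from -0.14 for Bad to 0.04 for Pmaip1, and each interval included 0. Bcl2 had the largest ratio, 0.71, but its interval ran from -0.17 to 1.71, and its Benjamini-Hochberg adjusted p was 0.565 in the exact binomial test. At this depth the level of Bcl2 in B could lie anywhere from 0.891 to 3.28 times that in A.

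**Figure D3:**
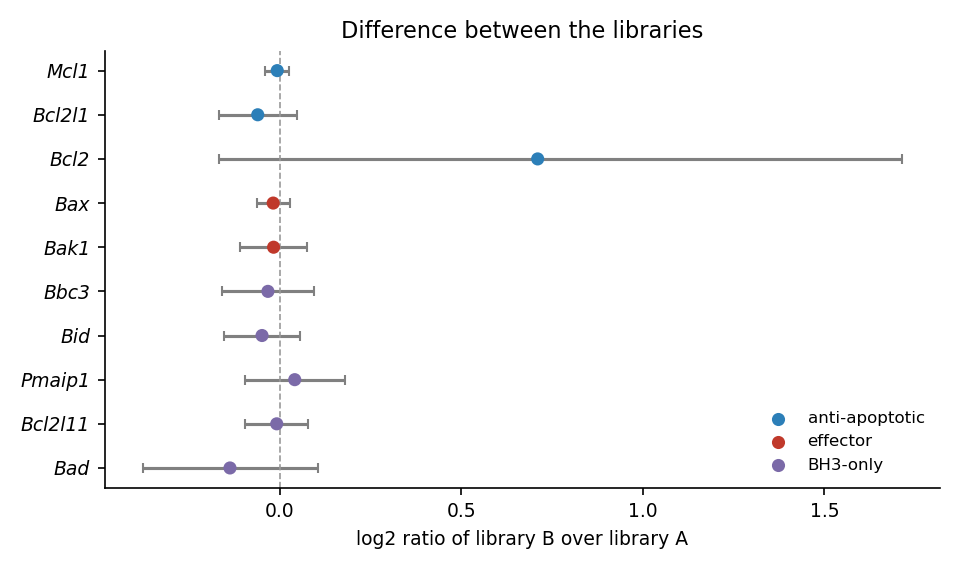
Log2 ratio of library B over library A for each of the 10 genes, with points coloured by role and bars giving the 95% exact binomial interval for counting error. Every interval crosses 0, that of Mcl1 from -0.04 to 0.03 and that of Bcl2 from -0.17 to 1.71.

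Exons of 5 of the 10 genes overlap those of a neighbour, and the sources used here do not give the counting rule for such bases. Bad shares 20.5% of its exon bases with Gpr137 on the opposite strand, whose 293 and 338 reads were slightly more than those of Bad. Bak1 shares 18.2% with Ggnbp1 (597 and 818 reads) and Bid 17.7% with Bcl2l13 (1754 and 2614 reads), a family member on the other strand. Bax shares 12.2% with Gm45808, a gene model on the same strand that has no row in the count tables. Bcl2 shares 6.09% with the antisense gene D630008O14Rik, which had 0 reads in both libraries. The libraries were made with a reverse-stranded protocol per the labels, but whether the counting used strand is not stated, so the levels of Bad, Bak1 and Bid are uncertain by an amount not given by these shares of bases. For Bax the strand plays no part, and how reads in the bases shared with Gm45808 were treated is not known.

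Since Drosha makes most microRNAs, the 3′ UTRs of the 10 genes were searched for matches to 7 microRNAs: miR-291a-3p and miR-17-5p, of families abundant in ES cells, miR-92a-3p, miR-19b-3p, miR-16-5p, miR-34a-5p and let-7a-5p. A match was the 7 bases that pair with bases 2 to 8 of the microRNA, the seed, on the transcript strand: AGCACTT for miR-291a-3p, GCACTTT for miR-17-5p, GTGCAAT for miR-92a-3p, TTTGCAC for miR-19b-3p, TGCTGCT for miR-16-5p, CACTGCC for miR-34a-5p and CTACCTC for let-7a-5p. The first pair of matches share 6 bases, so AGCACTTT holds both. The mature sequences of the 3 microRNAs with the most members matched, from RefSeq (GRCm38.p6), are given from 5′ to 3′ with the seed in capitals:
miR-291a-3p: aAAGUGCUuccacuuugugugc
miR-17-5p: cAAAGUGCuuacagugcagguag
miR-92a-3p: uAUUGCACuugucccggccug

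Matches were found in 8 of 10 members, and 0 in Bbc3 and Pmaip1. Matches to miR-17-5p were in 4 members (Bcl2, Bcl2l11, Bid and Mcl1) and in 11.0% of 20278 mouse 3′ UTRs. Matches to miR-92a-3p were in 4 (Bad, Bak1, Bcl2l11 and Mcl1) and 6.01% of UTRs, and matches to miR-291a-3p in 3 (Bcl2, Bcl2l11 and Mcl1) and 13.2%. The others were rarer among the members: miR-34a-5p in 2 (Bax and Bid; 13.004% of UTRs), miR-16-5p in 1 (Bcl2; 18.5%), miR-19b-3p in 1 (Bcl2l11; 10.2%) and let-7a-5p in 1 (Bcl2l1; 8.03%).

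Bcl2l11, with the most matches, and Mcl1, the most abundant anti-apoptotic gene, are shown with up to 30 bases around each match, on the transcript strand from 5′ to 3′ with the match in capitals:
Mcl1 at UTR base 9, miR-92a-3p, chr3:95660832-95660838: ccttgtgaGTGCAATaggggactcttaaag
Mcl1 at UTR base 1819, miR-291a-3p and miR-17-5p, chr3:95662642-95662649: tcggacttcagAGCACTTTatgtagttgaa
Bcl2l11 at UTR base 1251, miR-291a-3p, chr2:128159580-128159586: atgccgagtaaAGCACTTgtcttccacaag
Bcl2l11 at UTR base 1448, miR-291a-3p and miR-17-5p, chr2:128159777-128159784: cctggtggaggAGCACTTTctaacctgtgg
Bcl2l11 at UTR base 2122, miR-291a-3p and miR-17-5p, chr2:128160451-128160458: tccccgactggAGCACTTTactgtctcagc
Bcl2l11 at UTR base 2845, miR-92a-3p, chr2:128161174-128161180: caaatgtctctGTGCAATtgtgttcccttt
Bcl2l11 at UTR base 4078, miR-19b-3p, chr2:128162407-128162413: ttcctttacgtTTTGCACtgatgaattttg
Bcl2l11 at UTR base 4120, miR-92a-3p, chr2:128162449-128162455: ccactgtacctGTGCAATactgctgtaaat

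Bcl2l11 had 8 matches to 4 of the 7 microRNAs in a UTR of 4218 bases. Of 1173 mouse UTRs within 20% of that length, 18.3% match as many of the 7, and their median is 2. Mcl1 had 3 matches to 3 microRNAs in 2353 bases, where 17.1% of 2288 UTRs of like length match as many and the median is 1. Bcl2, with the longest UTR of the set at 5086 bases, matched 3, as did at least 3 in 51.1% of 775 UTRs of its length. Bid matched 2 (25.5% of like UTRs match as many), and Bcl2l1, Bax, Bak1 and Bad matched 1 each, Bax in a UTR of only 165 bases, where 9.001% of like UTRs match any. Of UTRs as long as those of Bbc3 and Pmaip1, 47.5% and 74.4% have a match to at least 1 of the 7. A match is no measured binding, and without a library of cells that make microRNAs the levels above cannot be set against the matches.

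**Figure D4:**
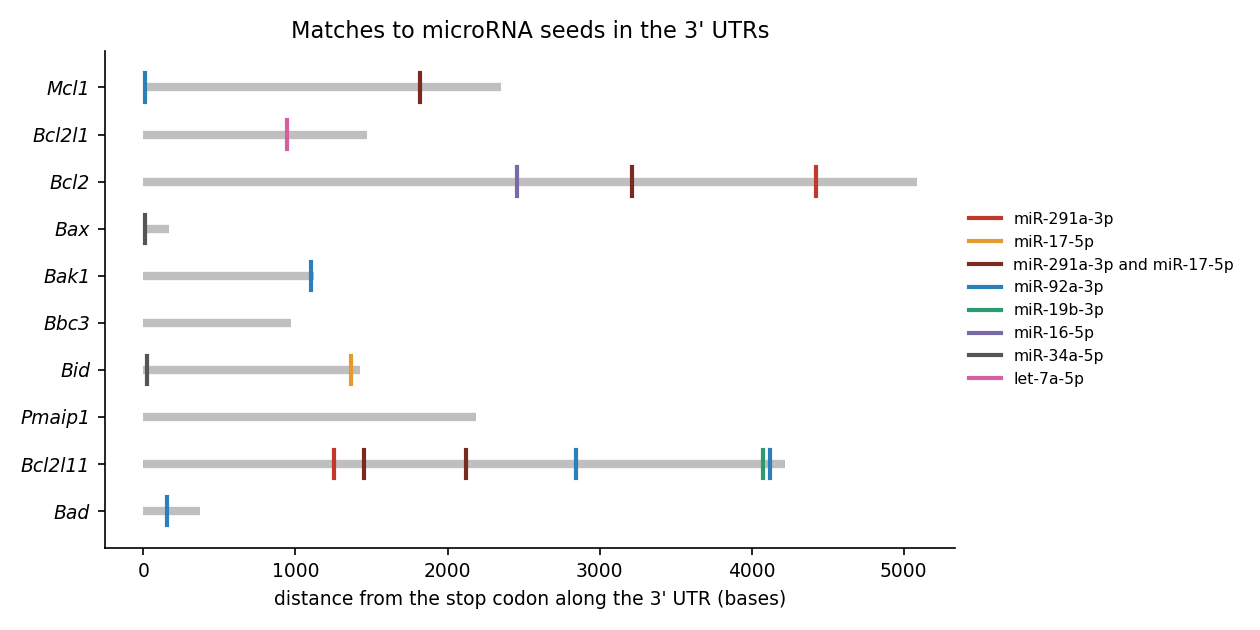
Annotated 3′ UTR of each of the 10 genes as a grey bar, with distance from the stop codon in bases on the horizontal axis and matches to the 7 microRNA seeds as coloured marks. Bcl2l11 has 8 matches in 4218 bases, overlapping matches being drawn as 1 mark, and Bbc3 and Pmaip1 have 0.

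Beyond the 10 genes, the family has other members, of which 10 of 15 on the list examined were expressed, with a median of 9.73 TPM. The highest were Bnip3 and Bnip3l, membrane proteins known for their part in removing mitochondria, at 175.6 ± 3.64 and 93.3 ± 2.83 TPM (SD, n = 2), and the BH3-only gene Bmf at 20.9 ± 0.961 TPM. Bcl2a1a, Bcl2a1b and Bcl2a1d had 0 reads in both libraries. They are near-identical copies, so reads that match several of them could have been dropped in counting. Of 12 genes tested on this list, 0 were called by the exact binomial test, beside 2.29% of all genes tested. An unadjusted p below 0.05 was found for 3 of the 12, beside 12.4% of all genes tested.

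Downstream of the pore, all 13 genes of the apoptosome and caspase list were expressed, with a median of 12.8 TPM. Aifm1, a mitochondrial protein released during cell death, led with 75.9 ± 1.96 TPM, and the protease gene Htra2 was at 30.1 ± 1.67 TPM. All 5 inhibitor of apoptosis genes were expressed too, led by Birc5 (survivin), which also acts in mitosis, at 104 ± 2.35 TPM, Birc2 at 31.1 ± 0.359 TPM and Birc6 at 19.3 ± 0.439 TPM. The death receptor arm, which reaches the mitochondria through Bid, was lower: 6 of 9 genes were expressed, with a median of 3.15 TPM. Its highest genes were the receptor genes Tnfrsf10b at 18.01 ± 0.0172 TPM and Tnfrsf1a at 9.94 ± 1.33 TPM and the adaptor gene Tradd at 6.31 ± 0.599 TPM.

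The 11 genes listed as regulators of the members were all expressed and had the highest median of these lists, 74.2 TPM. Vdac1, a channel of the mitochondrial outer membrane, was at 672 ± 11.5 TPM, the 14-3-3 gene Ywhaz at 337 ± 3.87 TPM, and Trp53, which encodes the transcription factor p53, at 266 ± 6.77 TPM. Of all 53 other pathway genes, 49 had enough reads for the test and 2 were called, beside 2.29% of all genes, both higher in B. These were Vdac1, with a log2 ratio of 0.05 (adjusted p = 0.00817), and Usp9x, a deubiquitinase of Mcl1, with 0.07 (adjusted p = 0.00521), in the exact binomial test after Benjamini-Hochberg adjustment. Vdac1 had 18998 reads in A and 28356 in B. The binomial test allows for counting error only, while the coefficient of variation beyond it was estimated at 2.25%. At such read counts small differences of this kind can be called. Once the GC trend was removed, Usp9x was no longer called (log2 ratio 0.026, adjusted p = 0.754 by the same test). With the coefficient of variation set to 0.1, edgeR's exact test called 0 of these genes and only 1 of all genes tested. Usp9x had 10869 reads in A and 16439 in B, and was at 67.4 ± 1.78 TPM.

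**Figure D5:**
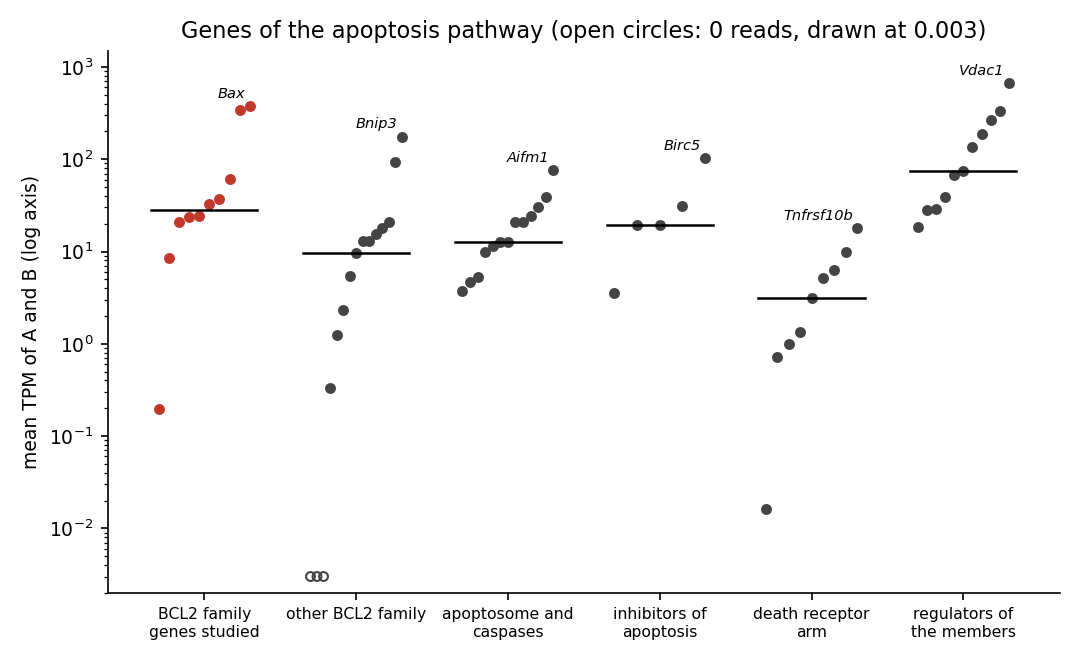
Mean TPM of libraries A and B on a log axis for the 10 BCL2 family genes and the 5 other lists of the pathway, 1 point per gene, with a line at each list's median. The medians run from 3.15 TPM for the death receptor arm to 74.2 TPM for the regulators, and the 3 open circles are the genes with 0 reads.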

How the data were processed

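Each library has 1 deposited table of raw counts per Ensembl gene, made by the authors, per the file headers. The submitters' processing notes name STAR 2.4.2a and featureCounts 1.4.5-p1 with mm10. How the counting treated strand and reads with several matches, and which annotation it used, is not given in the sources. GENCODE M21 on GRCm38, the same build, gave symbols, positions and lengths for 97.5% of the 43629 gene IDs, and the unmatched IDs held 0.163% of the counts.

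Counts were scaled by TMM over genes with at least 10 reads (edgeR 4.0.16, R 4.3.3) to CPM, and by exon length to TPM. Each gene with at least 10 reads entered an exact binomial test, two-sided, of B against A (scipy 1.17.1, Python 3.11.15), with Benjamini-Hochberg adjustment over all of them and a threshold of 0.05. With 1 group there is no test between conditions. Log2 ratios were computed after adding 0.5 reads to each count. Intervals are exact, at 95%, and cover counting error only. The test was tested on simulated data that held counting error only, so this does not check it for variation between libraries beyond counting.

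The members and gene lists were chosen with earlier results of these data known. Named are all 10 members and, of every other pathway list, the 3 genes with the highest mean TPM, each called gene and each gene with 0 reads in both libraries. A gene that this rule also names is not reported here. No gene was named for a pattern like a member's, since 2 libraries of 1 group give none. BH3 cores were searched in proteins translated from GENCODE coding sequences, since no RefSeq protein table was used here. DESeq2 1.42.0 size factors, total counts, read filters of 1 and 50, edgeR's exact test, removal of the trend with GC content, other CPM thresholds, other gene lengths and each library alone were the alternatives.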

Additional observations from a re-analysis of the deposited data

How the results depend on the processing

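Under all alternatives of scaling, read filter, GC trend and test, 0 of the 10 genes were called, with adjusted p from 0.229 to 1 over 70 recomputed ratios (binomial and edgeR exact tests, Benjamini-Hochberg adjustment). Of these ratios 3 changed sign, all after removal of the trend with GC content: Bax to a log2 ratio of 0.065, Bak1 to 0.027 and Bbc3 to 0.051. Over all genes, that removal lowered the calls from 417 to 144, and edgeR's exact test, with a coefficient of variation set to 0.1, left 1. Of the other pathway genes, 2 were called, 1 with the GC trend removed and 0 by edgeR's exact test. At 0.5 CPM 10 members and at 5 CPM 9 were expressed. Gene length moved the most. The order kept 5 of 10 ranks with the longest coding transcript, 3 with its coding length and 5 with the transcript of the longest complete coding sequence. Under these 3 lengths the share of Mcl1 in anti-apoptotic TPM was 89.1, 88.3 and 89.1%, the effector over anti-apoptotic ratio 1.55, 1.03 and 1.93, and the BH3-only over anti-apoptotic ratio 0.437, 0.665 and 0.439. Each library alone kept all 10 ranks. The length of the transcript with the longest complete coding sequence, TMM over all genes and the alternatives for the shares and ratios and for calls of pathway genes were chosen after seeing the data. No paired analysis was possible because there is 1 group. Depth limits Bcl2 the most, with 15 and 36 reads.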
